A study of Mus musculus with 14 samples.

Results

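The genes described here are 38 mouse genes of DNA crosslink repair and the damage checkpoint, taken by symbol from a table of 54532 genes that was measured by RNA sequencing of whole tumours. All 38 had 1 identifier in the table, and all 38 passed the filter on low counts and were tested. They comprise the Fanconi anaemia genes, their partners in homologous recombination, the nucleases that cut at a crosslink, 2 genes of translesion synthesis and the checkpoint kinases. The tumours grew from 4T1 cells, a mouse mammary carcinoma line described as triple-negative, with 1000000 cells placed under the skin over the mammary gland. Dosing began on day 9, at a tumour volume near 100 mm3, by intraperitoneal injection at intervals of 6 days over 3 cycles. Harvest followed 3 days after the last cycle. The PBS group (n = 4 libraries) received the buffer alone, CTX100 (n = 5) received cyclophosphamide (CTX) at 100 mg/kg, and CTX140 (n = 5) received it at 140 mg/kg. All groups carried the same line, in hosts whose strain, sex and age the labels do not give. Whether different libraries came from different mice is not stated, so the p-values refer to the spread between libraries, which may be technical.

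Cyclophosphamide is an alkylating drug whose active metabolite links the 2 strands of DNA. When a replication fork meets such a link, FANCM and the Fanconi core complex gather there and the core complex attaches ubiquitin to FANCD2 and FANCI. Nucleases then free 1 strand from the link, translesion polymerases copy past what remains, and homologous recombination through BRCA1 and BRCA2 restores the broken sister. ATR and ATM signal the damage through CHEK1 and CHEK2 and hold the cell cycle. Many of these genes are transcribed mainly in dividing cells, and much of their control acts on the proteins rather than on transcription.

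Library totals ran from 14423875 to 19282726 counts, and no library was left out. Of 9 markers of carcinoma epithelium, all were tested and none was at 0 in all libraries, and their summed level in counts per 1000000 (CPM) lay between 1445 and 2260 in PBS, between 1753 and 2127 in CTX100 and between 1258 and 1953 in CTX140. Single markers of this list nevertheless differed: 5 of the 9, Cdh1, Cldn7, Epcam, Esrp1 and Krt19, were called higher in CTX140 against PBS (3 without PBS 4), and 0 in CTX100, where a call is an edgeR adjusted p under 0.05. The mean log2 CPM of the 9 lay between 4.37 and 5.95 in CTX140, against 2.57 to 3.57 in PBS. Host cells were also present. Of 9 fibroblast markers, 3 were called higher in CTX100 and 8 in CTX140, each against PBS; the 3 became 0 without PBS 3, PBS 4, or CTX100 1, 3, 4 or 5, and 1 without CTX100 2, and DESeq2 called 7 there. The PBS libraries held 762 to 1295 CPM of them in all, the CTX100 libraries 1336 to 2345 CPM and the CTX140 libraries 2364 to 6753 CPM. For adipocyte markers the PBS libraries held 8.13 to 51.6 CPM, the CTX100 libraries 40.5 to 113 CPM and the CTX140 libraries 78.4 to 393 CPM, with 5 of 6 tested called higher in CTX140. Of 7 markers of granulocyte precursors 5 were called higher in CTX140 (3 without PBS 3 or PBS 4). Of 8 T cell markers 3 were called higher in CTX140, with a mean log2 CPM of 2.99 to 6.39 there, against 2.52 to 3.95 in PBS. Of 5 red blood cell markers 0 were called, but in CTX100 all 5 lay below PBS without overlap (median log2 fold change -3.10). The part of the carcinoma, adipocyte, granulocyte precursor, T cell and red blood cell markers in the results was not tested. In such bulk tissue, fewer cells of a type and less RNA per cell cannot be told apart.

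The promoter windows of 4 of the 5 genes called below, and that of Bard1, are shown here because they differ in the letters of 3 motifs known from genes of the cell cycle. Windows were those of RefSeq on GRCm38.p6, from 250 bases before to 50 bases after the start site, and 29 of the 38 genes had an entry. The letters searched on both strands were CCAAT, known as the box that NF-Y binds, the E2F forms TTTCCCGC, TTTCGCGC, TTTGCCGC and TTTGGCGC, and the CHR element TTTGAA; no motif contains another. Capitals mark these letters or their reverse complement. Brip1 (chr11:86201144-86201443, minus strand) held 3 CCAAT matches, all read on the opposite strand as ATTGG, and Fanca (chr8:123318527-123318826, minus strand) held 2. The windows of Ercc1 (chr7:19344821-19345120, plus strand) and Rev1 (chr1:38129617-38129916, minus strand) held none of the letters, and Bard1 (chr1:71102923-71103222, minus strand) held 1 E2F and 1 CHR match. The RefSeq start site matched the deposited gene start for Brip1 and Fanca. For Ercc1, Rev1 and Bard1 it lay inside the deposited gene. The Ercc1 window held no base before the deposited start at chr7:19344778, so its lack of matches does not describe the sequence upstream of that start.
Brip1: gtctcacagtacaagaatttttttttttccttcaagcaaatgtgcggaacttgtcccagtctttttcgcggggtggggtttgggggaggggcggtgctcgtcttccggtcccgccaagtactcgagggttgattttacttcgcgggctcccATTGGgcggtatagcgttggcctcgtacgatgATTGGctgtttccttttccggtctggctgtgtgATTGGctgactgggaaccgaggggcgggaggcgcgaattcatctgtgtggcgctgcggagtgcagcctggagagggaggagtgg
Fanca: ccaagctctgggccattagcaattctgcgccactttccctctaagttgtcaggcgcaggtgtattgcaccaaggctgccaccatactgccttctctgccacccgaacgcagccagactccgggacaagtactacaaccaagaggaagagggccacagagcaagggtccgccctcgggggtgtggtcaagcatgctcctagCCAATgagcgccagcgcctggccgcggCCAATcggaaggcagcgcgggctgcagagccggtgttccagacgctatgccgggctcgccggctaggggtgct
Ercc1: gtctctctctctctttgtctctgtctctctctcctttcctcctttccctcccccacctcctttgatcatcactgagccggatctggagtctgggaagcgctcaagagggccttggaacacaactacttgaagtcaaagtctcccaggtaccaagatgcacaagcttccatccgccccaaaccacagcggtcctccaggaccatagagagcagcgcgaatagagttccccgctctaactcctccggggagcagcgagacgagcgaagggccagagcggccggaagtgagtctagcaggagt
Rev1: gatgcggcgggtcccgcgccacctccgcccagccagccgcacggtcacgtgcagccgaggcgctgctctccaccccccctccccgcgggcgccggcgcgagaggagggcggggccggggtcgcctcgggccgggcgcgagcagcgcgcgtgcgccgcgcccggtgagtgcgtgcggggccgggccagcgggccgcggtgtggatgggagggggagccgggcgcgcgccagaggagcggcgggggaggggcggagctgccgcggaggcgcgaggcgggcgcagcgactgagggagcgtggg
Bard1: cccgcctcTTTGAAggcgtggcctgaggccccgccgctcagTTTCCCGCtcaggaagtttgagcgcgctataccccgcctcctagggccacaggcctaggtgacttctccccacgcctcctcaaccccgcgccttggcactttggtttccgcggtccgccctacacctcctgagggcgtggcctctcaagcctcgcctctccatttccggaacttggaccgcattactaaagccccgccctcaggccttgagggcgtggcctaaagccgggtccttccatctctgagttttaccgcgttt
CCAAT was found in the windows of 16 of the 29 genes (17 of 31 windows) and in 37.4% of all 32544 windows. The 16 were Atm, Blm, Brca1, Brip1, Chek2, Ercc4, Fanca, Fancb, Fancc, Fance, Fancf, Fancm, Palb2, Rad54l, Slx4 and Xrcc3. Of these, edgeR called Brip1 and Fanca alone. A relation between the letters and the direction of change was not tested. An E2F form was found for 5 genes, Bard1, Brca2, Chek2, Fancg and Rad51c (6 of 31 windows), and in 2.3% of all windows. TTTGAA was found for 2, Bard1 and Eme1 (2 of 31 windows), and in 17.8% of all windows. These matches describe the letters in the windows and are no measure of binding.

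Levels were compared between genes only in the deposited FPKM, which are divided by gene length. Ercc1, the partner of the XPF nuclease, stood highest in PBS tumours at 29.0 ± 4.18 FPKM (SD, n = 4), and its lowest PBS library at 24.9 FPKM lay above the highest of the gene next in order. Chek1, the kinase that ATR activates, followed at 10.9 ± 1.95 FPKM. Nbn, a subunit of the break-sensing MRN complex, had 10.8 ± 2.90 FPKM, and Rbbp8, the resection factor CtIP, had 10.6 ± 1.64 FPKM; the PBS ranges of these 3 overlapped from each to the next. At the foot of the order stood Fanci at 0.422 ± 0.184 FPKM and Fan1, a nuclease recruited by FANCD2, at 0.390 ± 0.0862 FPKM. Neighbours in the order did not overlap in their PBS ranges at 3 steps alone, after Ercc1, after Mus81 and after Rad51d.

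At 140 mg/kg the translesion synthesis genes Rev1 and Rev3l and the nuclease gene Ercc1 fell, and Fanca and Brip1 rose. That is 5 of 38 genes called (13.2%), against 21.3% of the 15360 genes tested in CTX140 against PBS by edgeR's quasi-likelihood test with Benjamini-Hochberg adjustment, so the share was below that of all genes. By direction it was 2 genes higher, against 11.1% of all genes, and 3 lower, against 10.1%. At an unadjusted p under 0.05 there were 9, of which 5 were higher and 4 lower, beside 35.7% of all genes. The median log2 fold change of the 38 was 0.10, beside 0.02 over all genes. The number called moved to 2 without PBS 3, to 1 without PBS 4, to 2 without CTX140 3 and to 3 without CTX140 4, where 12.6%, 12.8%, 16.7% and 21.2% of all genes were called. DESeq2 called 7, the same 5 with Rad54b higher and Fancl lower, beside 13.5% of the 30701 genes that it took in.

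At 100 mg/kg none of the 38 genes was called by edgeR, against 1.60% of all genes in CTX100 against PBS, 1.20% higher and 0.397% lower. Their values nevertheless lay above those in PBS for most genes, with 30 positive and 8 negative fold changes and a median of 0.23 on the log2 scale, beside -0.01 over all genes. At an unadjusted p under 0.05 there were 15, of which 13 were higher and 2 lower, beside 9.37% of all genes higher and 8.52% lower. DESeq2 on the same counts called 6, Bard1, Brip1, Exo1, Fanca and Fancd2 higher and Rev3l lower, beside 2.76% of its 30701 genes, and limma on the FPKM called 0. Without the library PBS 2, edgeR called 4 (Brip1, Exo1 and Fanca higher, Rev3l lower), beside 4.37% of all genes, and without CTX140 1 or CTX140 2 it called 1, Rev3l.

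**Figure D1:**
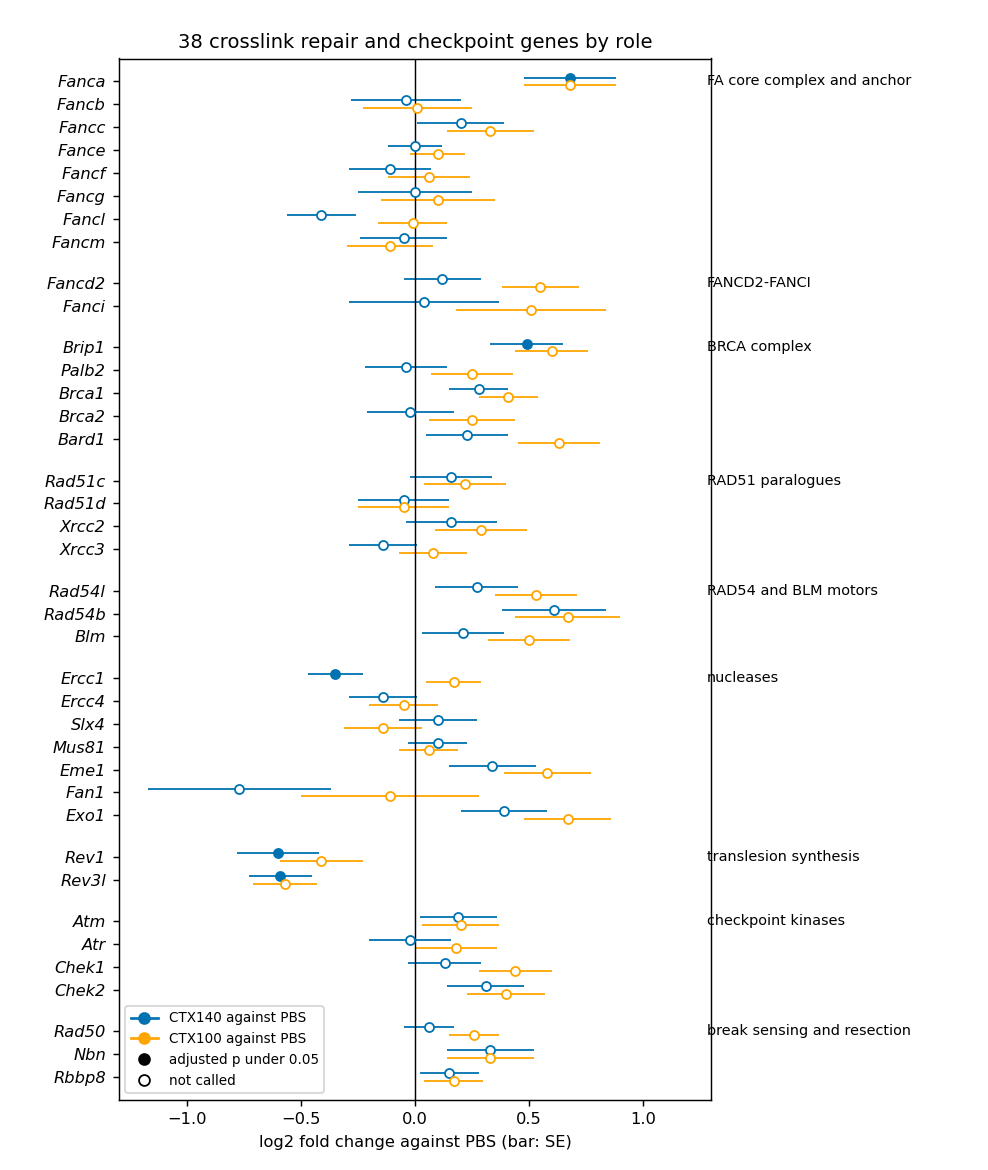
Log2 fold change against PBS of each of the 38 genes, grouped by role, for CTX140 (upper point of each pair) and CTX100 (lower point). Bars are 1 standard error (SE) and filled points have an edgeR adjusted p under 0.05, which is the case for 5 genes in CTX140 and for 0 in CTX100; both comparisons share the 4 PBS libraries.

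Both translesion synthesis genes were lower in CTX140 tumours. Rev3l encodes the catalytic subunit of DNA polymerase zeta, which extends past a lesion, and lies at chr10:39732118-39875211 on the plus strand (mm10). In the order of their replicate numbers, its libraries had 26.6, 27.4, 29.9 and 35.6 CPM in PBS, 20.5, 22.2, 21.4, 18.7 and 17.9 CPM in CTX100, and 25.9, 16.4, 18.4, 20.4 and 18.3 CPM in CTX140. Every CTX100 and every CTX140 library lay below the lowest PBS library, with CTX140 1 close to it. Rev3l fell in CTX140 against PBS, with a log2 fold change of -0.59 ± 0.14 (SE) and an edgeR adjusted p of 0.00908. In CTX100 the log2 fold change was -0.57 ± 0.14 with an adjusted p of 0.0538, just outside the threshold. The call in CTX140 held without any single library, at adjusted p values of 0.00215 to 0.0375. In CTX100 the gene passed the threshold without PBS 2, CTX140 1 or CTX140 2, at 0.0253 to 0.0441.

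Rev1 encodes a deoxycytidyl transferase that also serves as the scaffold for the other translesion polymerases (chr1:38052786-38129801, minus strand). It had 16, 18.1, 19.8 and 17.4 CPM in PBS, 15.1, 15.9, 13.3, 11.8 and 10.9 CPM in CTX100, and 8.51, 9.33, 11.4, 15.2 and 14.4 CPM in CTX140. The treated libraries lay below all PBS libraries at both doses, narrowly so for CTX100 2. It fell in CTX140 against PBS by 0.60 on the log2 scale, with an SE of 0.18 and an edgeR adjusted p of 0.0268. In CTX100 the log2 fold change was -0.41 ± 0.18 (adjusted p = 0.244). The call was lost, at adjusted p values of 0.0517 to 0.0787, without PBS 3, PBS 4, CTX140 1, CTX140 2 or CTX140 3. Rev1 overlaps Eif5b on the other strand, whose reads cannot be separated from its own because the strand setting is not given; Eif5b had a log2 fold change of 0.00 in CTX140 (adjusted p = 0.984). Between the doses the log2 differences, CTX140 against CTX100, were -0.02 ± 0.14 for Rev3l and -0.19 ± 0.17 for Rev1, and neither was called.

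**Figure D2:**
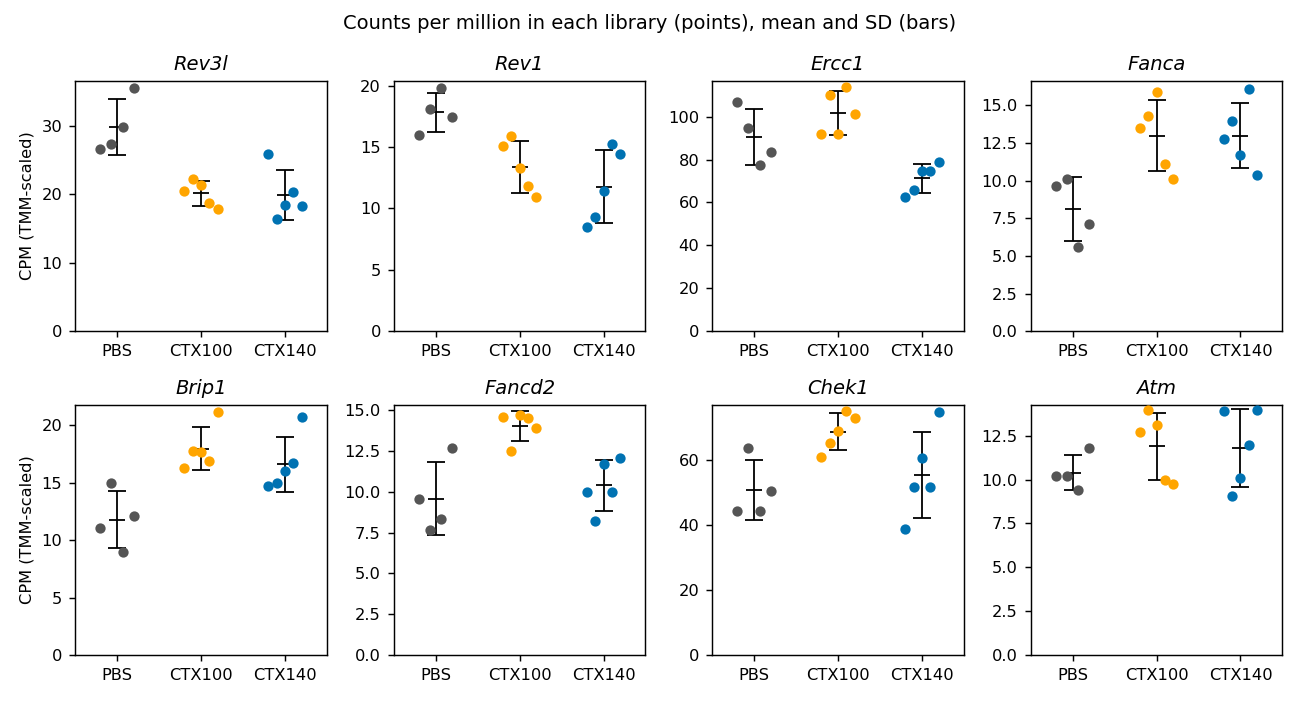
CPM per library (points) with the mean and SD (bars) for the 5 called genes and for Fancd2, Chek1 and Atm, in PBS (n = 4), CTX100 (n = 5) and CTX140 (n = 5); each axis starts at 0. Rev3l and Rev1 lie below the PBS libraries at both doses, Fanca lies at or above the highest of them, and Ercc1 is lowest in CTX140, between 62.7 and 78.7 CPM.

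Among the nucleases, Ercc1 fell at the higher dose. ERCC1 forms with ERCC4, also called XPF, the enzyme that cuts beside a crosslink and in nucleotide excision repair (chr7:19344778-19356524, plus strand). Its libraries had 107, 94.8, 77.3 and 83.5 CPM in PBS, 91.7, 110, 91.9, 114 and 101 CPM in CTX100, and 62.7, 65.8, 74.5, 74.6 and 78.7 CPM in CTX140. All CTX140 libraries lay below all CTX100 libraries, while CTX140 5 reached above PBS 3. In CTX140 against PBS the log2 fold change was -0.35 ± 0.12 (edgeR adjusted p = 0.0443). CTX140 against CTX100 gave -0.51 ± 0.11 with an adjusted p of 0.0384, and this was the 1 gene of the 38 called between the doses (2.63%), against 1.25% of all genes. In CTX100 against PBS its log2 fold change was 0.17 ± 0.12 (adjusted p = 0.487). The call against PBS was lost without PBS 1, 2 or 4, CTX100 5, or CTX140 1, 2 or 3 (adjusted p 0.0518 to 0.122). The call between doses was lost without any 1 of the 5 CTX100 libraries or CTX140 1, 2 or 3 (0.0521 to 0.115). Of all genes, 0 were then called without CTX100 2, 3 or 4 or CTX140 3, and 1 without CTX100 1 or CTX140 2. The share was 1.06% without CTX100 5 and 0.343% without CTX140 1. With any single library left out, the log2 fold change of Ercc1 between the doses ran from -0.55 to -0.47. Cd3eap, which overlaps Ercc1 on the other strand, had a log2 fold change of 0.27 in CTX140 against PBS (adjusted p = 0.271).

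The other 6 nuclease genes were not called by edgeR in any comparison with all libraries. Ercc4 averaged 11.5 ± 2.12 CPM in CTX140 and 12.2 ± 1.26 CPM in CTX100, against 12.7 ± 1.40 CPM in PBS, so its log2 fold change of -0.14 ± 0.15 in CTX140 was within the spread between libraries. Exo1, which resects broken ends, had a log2 fold change of 0.67 ± 0.19 in CTX100 (adjusted p = 0.0753, or 0.0191 with DESeq2), and its CTX100 libraries lay above all PBS libraries. In CTX140 its log2 fold change was 0.39 ± 0.19. Eme1, the partner of the MUS81 nuclease, had log2 fold changes of 0.58 ± 0.19 in CTX100 and 0.34 ± 0.19 in CTX140, while Mus81 itself had 0.06 ± 0.13 and 0.10 ± 0.13. The scaffold gene Slx4 had -0.14 ± 0.17 and 0.10 ± 0.17. Fan1 had the lowest log2 fold change of the 38 in CTX140, at -0.77 ± 0.40, but with 13 to 60 counts in a library this difference was not called (adjusted p = 0.179).

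In the Fanconi core complex Fanca was the gene that rose. FANCA is a subunit of the ubiquitin ligase that modifies FANCD2 and FANCI (chr8:123268300-123318576, minus strand). It had 9.64, 10.1, 5.59 and 7.14 CPM in PBS, 13.5, 14.3, 15.9, 11.1 and 10.1 CPM in CTX100, and 12.8, 14.0, 11.7, 16.1 and 10.4 CPM in CTX140. The treated libraries lay at or above the highest PBS library, which CTX100 5 and CTX140 5 barely passed. Fanca averaged 13.0 ± 2.19 CPM in CTX140, against 8.12 ± 2.13 CPM in PBS, a log2 fold change of 0.68 ± 0.20 with an edgeR adjusted p of 0.0252. In CTX100 the log2 fold change was also 0.68 ± 0.20, with an adjusted p of 0.0906, or 0.0476 without PBS 2. The unadjusted edgeR p was 0.00360 in CTX100 and 0.00365 in CTX140. The adjustment over all genes of a comparison thus made the call at 1 dose alone. The call in CTX140 was lost without PBS 3, PBS 4 or CTX140 4, at adjusted p values of 0.0569 to 0.0878. Zfp276, which overlaps Fanca on the other strand, had a log2 fold change of 0.07 in CTX140 (adjusted p = 0.823).

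The remaining core genes were not called by edgeR. Fancb, Fance, Fancf, Fancg and Fancm had log2 fold changes from -0.11 to 0.10 in CTX100 and from -0.11 to -0.00 in CTX140, with SE of 0.12 to 0.25. Fancc, also of the core complex, had 0.33 ± 0.19 in CTX100 and 0.20 ± 0.19 in CTX140. Fancl, the ubiquitin ligase subunit itself, averaged 13.5 ± 1.80 CPM in CTX140, against 18.0 ± 1.59 CPM in PBS. Its 5 CTX140 libraries lay below the 4 PBS libraries, narrowly so for CTX140 2, and the log2 fold change of -0.41 ± 0.15 had an adjusted p of 0.0536. Fancl passed the threshold without PBS 1, CTX100 1, CTX100 2 or CTX140 2 (0.0415 to 0.0470) and with DESeq2 (0.0415).

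The substrates of the complex, Fancd2 and Fanci, were not called by edgeR. Fancd2 had 9.58, 7.65, 8.32 and 12.7 CPM in PBS, 14.6, 12.5, 14.7, 14.5 and 13.9 CPM in CTX100, and 10.0, 8.20, 11.7, 10.0 and 12.1 CPM in CTX140. The CTX100 libraries stood high and close together, above all CTX140 libraries, with PBS 4 reaching among them. Its log2 fold change was 0.55 ± 0.17 in CTX100 (edgeR adjusted p = 0.0964, or 0.0326 with DESeq2) and 0.12 ± 0.17 in CTX140 (adjusted p = 0.633), and -0.43 ± 0.16 in CTX140 against CTX100 (adjusted p = 0.124). Fanci, with 21 to 91 counts in a library, had log2 fold changes of 0.51 ± 0.33 in CTX100 and 0.04 ± 0.33 in CTX140.

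Of the BRCA complex genes only Brip1 was called, in CTX140, although its log2 fold change was no smaller in CTX100. Its unadjusted edgeR p was 0.00144 in CTX100 and 0.00669 in CTX140. BRIP1, or FANCJ, is a DNA helicase that binds BRCA1 (chr11:86058138-86201193, minus strand). It had 11.1, 15.0, 9.01 and 12.1 CPM in PBS, 16.3, 17.8, 17.7, 16.9 and 21.2 CPM in CTX100, and 14.7, 15.0, 16, 16.7 and 20.7 CPM in CTX140. The CTX100 libraries lay above every PBS library, whereas CTX140 1 and CTX140 2 lay level with PBS 2. In CTX140 the log2 fold change was 0.49 ± 0.16 (edgeR adjusted p = 0.0370), and in CTX100 it was 0.60 ± 0.16 (adjusted p = 0.0632, or 0.0231 without PBS 2). The call in CTX140 was lost without PBS 1, 3 or 4, CTX100 2 or 3, or CTX140 3, 4 or 5, at adjusted p values of 0.0506 to 0.124.

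Brca1 and its partner Bard1, which together form a ubiquitin ligase, were not called by edgeR. Bard1 averaged 14.8 ± 2.21 CPM in CTX140 and 19.6 ± 1.55 CPM in CTX100, against 12.6 ± 3.67 CPM in PBS. Its log2 fold change was 0.63 ± 0.18 in CTX100 (adjusted p = 0.0795, or 0.0211 with DESeq2) and 0.23 ± 0.18 in CTX140 (adjusted p = 0.366). Brca1 averaged 25.8 ± 4.04 CPM in CTX140 and 28.3 ± 2.08 CPM in CTX100, against 21.3 ± 1.77 CPM in PBS, with log2 fold changes of 0.28 ± 0.13 and 0.41 ± 0.13. The CTX100 libraries of both genes lay above all PBS libraries, and those of CTX140 did not. Palb2, which joins BRCA1 to BRCA2, and Brca2, a mediator of homologous recombination, both had log2 fold changes of 0.25 in CTX100, and of -0.04 ± 0.18 and -0.02 ± 0.19 in CTX140.

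None of the genes for motor proteins of recombination was called by edgeR. Rad54l and Rad54b encode DNA translocases, and Blm encodes a helicase that unwinds joined strands. Their log2 fold changes in CTX100 were 0.53 ± 0.18, 0.67 ± 0.23 and 0.50 ± 0.18 and the CTX100 libraries of each lay above all PBS libraries. In CTX140 they were 0.27 ± 0.18, 0.61 ± 0.23 and 0.21 ± 0.18. Rad54b had an edgeR adjusted p of 0.0637 there, of 0.0309 to 0.0482 without PBS 2, CTX140 1 or CTX140 2, and of 0.0385 with DESeq2. The genes Rad51c, Rad51d, Xrcc2 and Xrcc3, which act in homologous recombination, showed no difference past an unadjusted p of 0.05 at either dose. Their log2 fold changes ran from -0.05 to 0.29 in CTX100 and from -0.14 to 0.16 in CTX140. Of all genes, 17.9% passed that p in CTX100 and 35.7% in CTX140. Rad51d spread widely in CTX140, from 9.15 CPM in CTX140 5 to 20.9 CPM in CTX140 1, around almost the same mean as in PBS (13.7 ± 4.98 CPM in CTX140, against 14.2 ± 1.11 CPM in PBS).

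In all, 8 genes had every CTX100 library above every PBS library (Fanca, Brip1, Brca1, Bard1, Rad54l, Rad54b, Blm and Exo1), beside 5.17% of all genes, and 2 had every one below (Rev1 and Rev3l), beside 3.55%. In CTX140 this held for 1 gene higher, Fanca, beside 7.34% of all genes, and for 3 lower (Rev1, Rev3l and Fancl), beside 6.91%. Between the doses 3 genes were lower without overlap in CTX140 than in CTX100 (Ercc1, Bard1 and Fancd2), beside 3.71% of all genes, and 0 were higher, beside 2.33%. Fold changes of CTX140 against CTX100 were negative for 35 of the 38 genes, with a median of -0.13, beside 0.03 over all genes, and 4 had an unadjusted p under 0.05, all lower, beside 22.3% of all genes in either direction and 9.27% lower.

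None of the 4 checkpoint kinase genes was called by edgeR or DESeq2 at either dose. In CTX100 2 of them, Chek1 and Chek2, had an unadjusted edgeR p under 0.05, beside 17.9% of all genes. In CTX140 0 of them did, beside 35.7% of all genes. Chek1 had 44.4, 63.7, 44.3 and 50.4 CPM in PBS, 60.9, 65.2, 69.0, 75.1 and 72.9 CPM in CTX100, and 38.6, 51.5, 60.4, 51.7 and 74.7 CPM in CTX140. CTX140 held both the lowest and nearly the highest library, and PBS 2 reached above CTX100 1. Its log2 fold change was 0.44 ± 0.16 in CTX100 (adjusted p = 0.168) and 0.13 ± 0.16 in CTX140 (adjusted p = 0.601). Chek2, the kinase that ATM activates, had 0.40 ± 0.17 and 0.31 ± 0.17.

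Atm, the kinase that responds to double-strand breaks, had 10.2, 10.2, 9.43 and 11.8 CPM in PBS, 12.7, 14.0, 13.1, 10.00 and 9.77 CPM in CTX100, and 13.9, 9.09, 10.1, 12.0 and 14.0 CPM in CTX140. The groups overlapped, with low and high libraries at each dose. Its log2 fold changes of 0.20 ± 0.17 in CTX100 and 0.19 ± 0.17 in CTX140 were close to their SE, and those of Atr, the kinase of stalled forks, were 0.18 ± 0.18 and -0.02 ± 0.18. Of the break-sensing and resection genes, Rad50 had 0.26 ± 0.11 in CTX100 (adjusted p = 0.248) and 0.06 ± 0.11 in CTX140. Nbn had 0.33 ± 0.19 at both doses and Rbbp8 had 0.17 ± 0.13 and 0.15 ± 0.13, none of them called.

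Of 15 targets of p53, the transcription factor that ATM and CHEK2 activate, 11 were called higher in CTX140 against PBS (6 without PBS 4), beside 11.1% of all genes called higher. Their median log2 fold change was 0.66. In CTX100 4 of 15 were called higher (2 without PBS 3), beside 1.20% of all genes, with a median of 0.33 and a lowest value of -0.29. Cdkn1a, the cell cycle inhibitor p21, rose by 1.65 ± 0.19 on the log2 scale in CTX140 (edgeR adjusted p = 6.79e-05) and by 1.22 ± 0.18 in CTX100 (adjusted p = 0.0120). These targets stand beside the 5 and 0 repair and checkpoint genes called at the same doses, and the difference between the lists was not tested. Whether the targets rose in carcinoma cells or in host cells was not measured, nor was p53 activity itself.

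**Figure D3:**
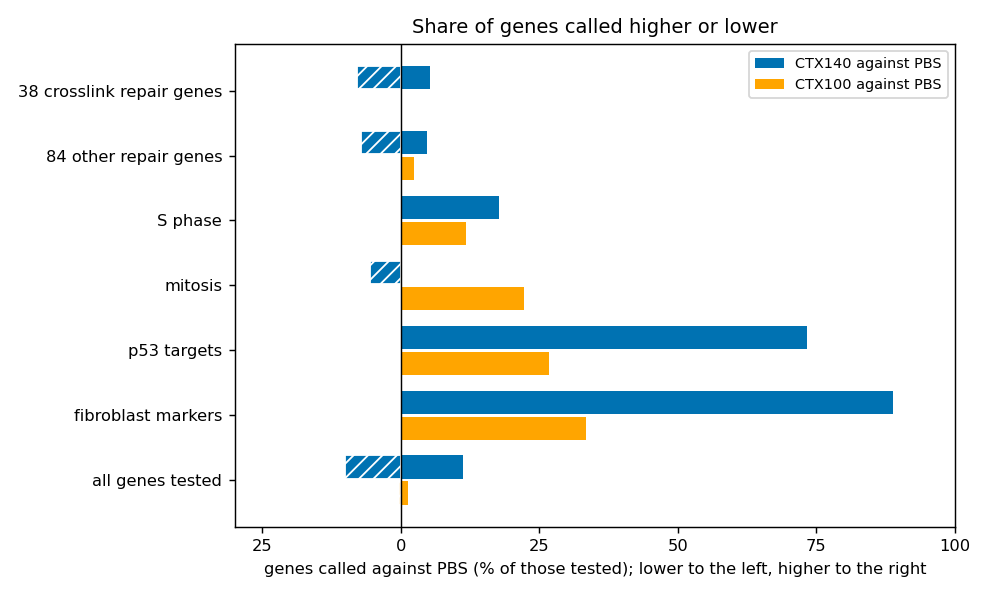
Percent of the tested genes of each list called against PBS by edgeR, in CTX140 (upper bar) and CTX100 (lower bar), with genes called higher to the right of 0 and genes called lower to the left, hatched. The 38 crosslink repair genes reached 13.2% in CTX140 and 0 in CTX100, the p53 targets 73.3% and 26.7%, and all genes tested 21.3% and 1.60%.

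A list of 18 mitosis genes, whose transcripts are known to mark dividing cells, also differed between the groups. Its level, the mean log2 CPM over the list, lay between 5.99 and 6.28 in PBS, between 6.54 and 6.80 in CTX100 and between 5.86 and 6.53 in CTX140, so that CTX100 stood above the other groups. In CTX100 4 of the 18 were called higher, with a median log2 fold change of 0.46. That number was 0 or 1 without PBS 3, PBS 4 or any single CTX100 library, and 8 without CTX140 1 or CTX140 5. In CTX140 1 was called, Mki67, which fell (log2 fold change -0.45 ± 0.15, adjusted p = 0.0443), a call lost without PBS 2, 3 or 4, CTX100 3, 4 or 5, or CTX140 1, 2 or 3. Of 17 S phase genes, 2 were called higher in CTX100 and 3 in CTX140, with median log2 fold changes of 0.41 and 0.29. The 2 became 0 without PBS 3, PBS 4 or CTX100 2, 3, 4 or 5, 1 without CTX100 1, CTX140 3 or CTX140 4, 4 without PBS 2 and 5 without CTX140 1, and DESeq2 called 8. The 3 became 1 without PBS 3, PBS 4 or CTX140 5 and 5 without CTX140 1.

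Across the 14 libraries the level of 13 of the 38 genes followed that of the mitosis list, all positively, at a Benjamini-Hochberg adjusted p under 0.05 over 38 relations (Pearson's r, two-sided permutation test). The highest r was that of Blm at 0.90, with a permutation p of 1e-05, the smallest that the 100000 resamples can give, and an adjusted p of 3.80e-04. Its Spearman's rho was 0.87 (adjusted permutation p = 0.00228). Chek1 followed with an r of 0.86 and a rho of 0.80 (adjusted permutation p = 0.00152 and 0.00619), then Bard1 with 0.84 and 0.87 (0.00152 and 0.00228) and Exo1 with 0.83 and 0.84 (0.00152 and 0.00243). The others were Fancd2, Eme1, Rad54l, Rad50, Brca1, Brca2, Brip1, Palb2 and Ercc1, with r from 0.64 to 0.79. By rho 9 of the 13 also passed. The permutation moved libraries across the dose groups. Its p-values therefore mix the difference between groups with the spread between libraries of a group. The choice of this relation was made after the values were seen. The share of all tested genes that would pass the same threshold was not computed, so the 13 cannot be read as particular to these genes.

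The relation of the leading genes was recomputed without outlying libraries and within groups. Without the 2 libraries farthest from the median level, CTX100 3 and CTX140 1, r was 0.88 for Blm, 0.82 for Chek1, 0.92 for Bard1 and 0.82 for Exo1. Within groups, after group means were removed, r was 0.91, 0.78, 0.70 and 0.83 for the same genes. It was lower for Fancd2 and Rad50 (0.45 each), Palb2 (0.39) and Ercc1 (0.38). The r within groups were not tested. Of the genes called in CTX140, Fanca had an r of 0.35 (adjusted permutation p = 0.318), Rev1 0.11 (0.716) and Rev3l -0.40 (0.273), and none of these 3 passed the threshold. With the level of the S phase list instead, Fanca had 0.72 (adjusted permutation p = 0.0156), Rev3l -0.77 (0.00662) and Rev1 -0.23 (0.501).

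**Figure D4:**
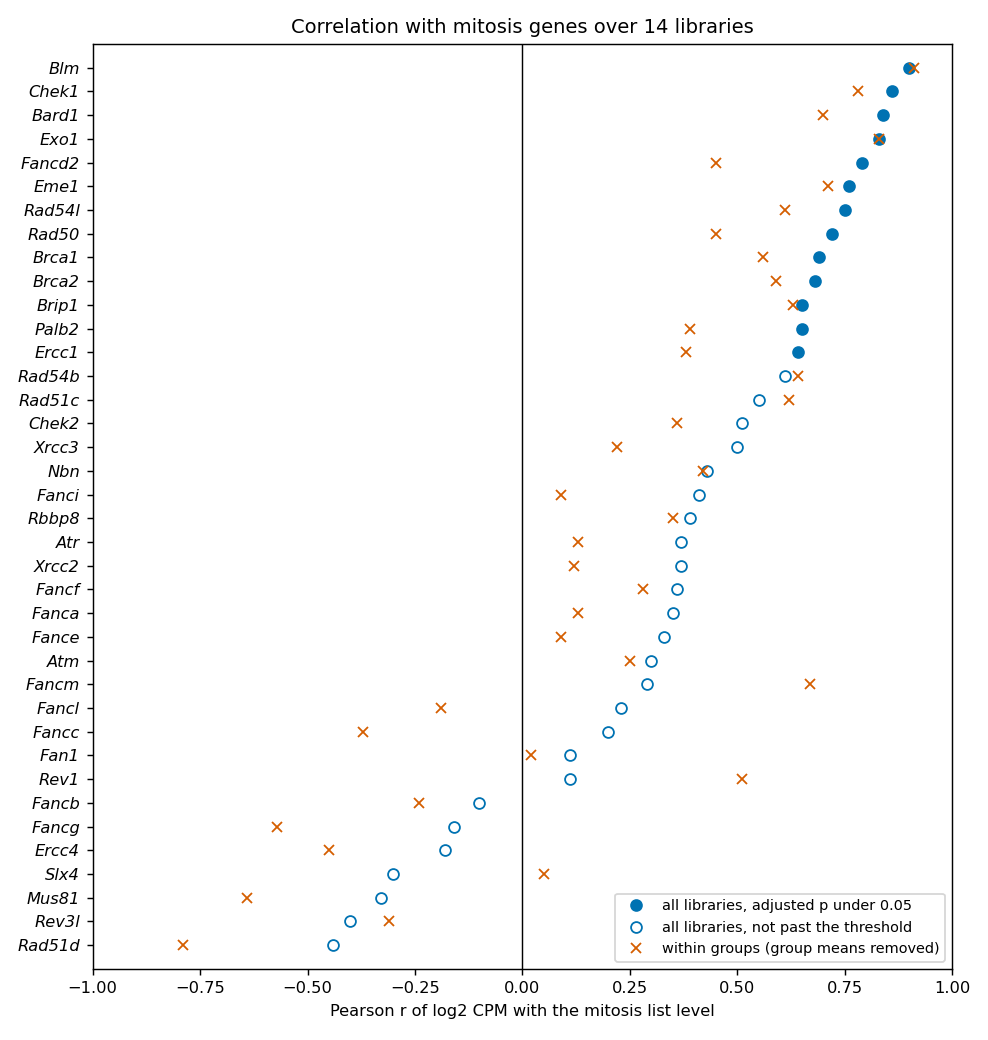
Pearson's r between the log2 CPM of each of the 38 genes and the mean log2 CPM of 18 mitosis genes over 14 libraries (circles, filled at an adjusted permutation p under 0.05), and the same within groups after group means were removed (crosses). The 13 filled circles run from 0.64 for Ercc1 to 0.90 for Blm, and Rad51d is lowest at -0.44.

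With the mitosis level added to the edgeR fit as a covariate, 6 of the 38 genes were called in CTX140 against PBS, the same 5 and Rad54b, beside 22.3% of all genes (Rad54b log2 fold change 0.61, adjusted p = 0.0404). Rev3l then had -0.59 (adjusted p = 0.00817), Rev1 -0.63 (0.0153), Fanca 0.68 (0.0262), Brip1 0.48 (0.0252) and Ercc1 -0.35 (0.0376). In CTX100 the same covariate left 0 of the 38 and 0 of all genes called, and the log2 fold changes were 0.09 for Exo1, 0.18 for Bard1, 0.27 for Brip1, 0.29 for Fancd2, 0.58 for Fanca, -0.40 for Rev3l and -0.75 for Rev1. Mitosis levels of CTX100 and PBS did not overlap, so dose and mitosis level cannot be told apart in that comparison. With the fibroblast level as covariate 0 of the 38 and 13 of all genes were called in CTX140. The log2 fold changes were then -0.45 for Rev3l, -0.32 for Rev1, -0.12 for Ercc1, 0.93 for Brip1 and -0.19 for Fanca, which is the opposite sign for Fanca (adjusted p = 0.913). Fibroblast levels of CTX140 and PBS did not overlap (6.82 to 8.29 in CTX140, against 5.14 to 5.61 in PBS), so the dose and the fibroblast level cannot be told apart in this fit.

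Beyond the 38 genes, 84 other repair and checkpoint genes were tested in the same fit. Of these, 10 were called in CTX140 against PBS (11.9%), 4 higher and 6 lower, beside 21.3% of all genes, so the share was below that of all genes. Without PBS 3 the number was 5, beside 12.6% of all genes. In CTX100, 2 were called higher (2.38%), beside 1.20% of all genes called higher. That number was 0 without PBS 3, PBS 4 or any single CTX100 library and 4 without PBS 2. The highest log2 fold change in CTX140 was that of Mgmt, whose protein removes alkyl groups from guanine. It had 2.29, 1.16, 0.839 and 1.10 CPM in PBS, 2.65, 2.81, 3.21, 2.14 and 2.97 CPM in CTX100, and 9.59, 9.98, 5.52, 3.07 and 4.23 CPM in CTX140. Every CTX140 library lay above every PBS library, and the spread within CTX140 was wide. Mgmt rose by 2.26 ± 0.38 on the log2 scale in CTX140 (edgeR adjusted p = 0.00102), a call that held without any single library. With 12 to 38 counts in a PBS library, its level there was low.

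Usp1 and Wdr48, whose proteins together remove ubiquitin from FANCD2, both fell in CTX140. Usp1 had 104, 106, 131 and 116 CPM in PBS, 107, 119, 121, 110 and 113 CPM in CTX100, and 77.8, 87.0, 80.5, 75.7 and 79.5 CPM in CTX140. The CTX140 libraries lay below all others. Its log2 fold change was -0.51 ± 0.09 in CTX140 against PBS (edgeR adjusted p = 0.00181) and -0.51 ± 0.09 in CTX140 against CTX100 (adjusted p = 0.0260). Wdr48 averaged 22.8 ± 1.86 CPM in CTX140, against 34.8 ± 7.32 CPM in PBS (log2 fold change -0.61 ± 0.15, adjusted p = 0.0104). Both calls against PBS held without any single library. The call of Usp1 between the doses was lost without CTX100 1, 2, 3 or 4, or CTX140 2 or 3 (adjusted p 0.0533 to 0.0821). In each of those fits 0 or 1 of all genes was called between the doses.

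Xrcc4, of end joining, fell by 0.58 ± 0.15 on the log2 scale in CTX140 against PBS (edgeR adjusted p = 0.0119, or 0.0509 without PBS 3). Trp53bp1, a checkpoint adaptor at breaks, fell by 0.42 ± 0.12 (adjusted p = 0.0229), a call lost without PBS 4 or CTX140 3 (0.0501 and 0.0850). Faap24, which pairs with FANCM, rose by 0.59 ± 0.15 in CTX140 (adjusted p = 0.0117). Mcm8, a helicase gene of recombination, rose by 0.58 ± 0.19 (adjusted p = 0.0379), a call lost without PBS 1, 3 or 4, CTX100 1, 2 or 3, or CTX140 3, 4 or 5 (0.0501 to 0.114). Of 6 other genes of translesion synthesis (Polh, Poli, Polk, Mad2l2, Rad18 and Pold3), 0 were called by edgeR at either dose. At each dose 1 had an unadjusted p under 0.05, beside 17.9% of all genes in CTX100 and 35.7% in CTX140. The fold changes of the 6 were positive for 3 and negative for 3 in CTX100, and for 2 and 4 in CTX140.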

How the data were processed

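Bulk RNA sequencing of 4T1 tumours was deposited as 2 tables. One gives read counts per gene as whole numbers, deposited by the authors without normalisation. The other gives FPKM, which the authors derived from those counts: the count over gene length and FPKM was 1 constant for every library. The build was mm10 and a tool named was DESeq2, per the submitters' processing notes. Neither aligner, counter nor strandedness is given in the sources used here. Of the 38 genes, 22 are overlapped by a gene of the opposite strand, and 37 have the same coordinates in GENCODE release M21.

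Groups came from the treatment labels, which name no batch. Counts of all 14 libraries were fitted together by the robust quasi-likelihood test of edgeR 4.0.16 in R 4.3.3 (two-sided, filterByExpr, TMM factors, no covariate), and p-values were adjusted by Benjamini-Hochberg over all 15360 genes tested. CPM are counts per 1000000 of the TMM-scaled total. List levels are mean log2 CPM with a prior count of 2. The fit was also run on simulated counts with changed genes. The outcome of that run is not reported here, and no result above rests on it. DESeq2 1.42.0, limma 3.58.1 on log2(FPKM + 1) or log2(FPKM + 0.1), other factors and filters, covariates and left-out libraries were alternatives. Single values are given per library for called genes and for Fancd2, Chek1, Atm, Ercc1 and Rev3l; of the other repair genes, up to 2 called per direction and subgroup were taken. The members, lists and tests were chosen with earlier results of these data known. Some results for single repair genes are not reported here.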

Additional observations from a re-analysis of the deposited data

Results flagged for a closer look

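In 114 groups of 4 or 5 libraries, 1 library stood far from the rest in 3, where chance gives about 1 in 20. Rad54l had 5.80 CPM in PBS 3, with the nearest PBS library at 9.52 CPM. Rad51d had 12.6 CPM in PBS 2, with the nearest at 14.6 CPM. Xrcc3 had 5.94 CPM in CTX140 2, with the nearest at 7.24 CPM. None of these 3 genes was called by edgeR in any comparison.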

How the results depend on the processing

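Of the 38 genes, edgeR called 0 in CTX100 against PBS, beside 1.60% of all genes. DESeq2 called 6 (2.76% of all genes) and the fit of those 2 groups alone 1 (3.63%). Leaving out 1 library gave 0 to 4, beside 0.108% to 4.37% of all genes. In CTX140 against PBS, 5 genes were called, beside 21.3% of all genes. No filter on low counts gave 3 (9.05% of all genes), the fit of those 2 groups alone 1 (12.5%) and the fibroblast covariate 0 (0.0846%). Limma on log2(FPKM + 1) and on log2(FPKM + 0.1) gave 3 each (13.8% and 15.1%), and limma without a filter 1 (5.4%). Leaving out 1 library gave 1 to 6, beside 12.6% to 24.8% of all genes. Between the doses, CTX140 against CTX100, 1 gene was called, beside 1.25% of all genes. The mitosis covariate (0.013% of all genes), the fibroblast covariate (0.0195%) and the 3 limma settings (0 to 0.342%) gave 0. Leaving out 1 library gave 0 to 1, beside 0 to 6.62% of all genes. The cause of these differences was not tested. Fanca in CTX140 against PBS reversed under the fibroblast covariate, at -0.19. Over 26 alternatives, the calls in CTX140 against PBS held in 25 for Rev3l, 20 for Fanca, 17 for Rev1 and 11 each for Brip1 and Ercc1. With the S phase level in place of the mitosis level, an alternative added after the data were seen, 13 genes again passed, 8 of them shared. Chek2, Fanca, Nbn, Rad54b and Rev3l passed only there, and Rev3l was the 1 negative. With log2(FPKM + 1) the same 13 passed as in the main setting.

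Replicate numbers are shared between groups, and whether they pair the libraries was not settled. Of 13 same-numbered pairs, 6 correlated above 0.1 (range -0.193 to 0.431). The best partner had the same number in 10 of 26. No pairing entered the main fit. The replicate block left 2 calls in CTX140 against PBS, Fanca and Rev3l, beside 18.4% of all genes, and changed neither other count. Fan1 and Fanci, at 13 to 60 and 21 to 91 counts in a library, are the least precisely measured.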
